A study of Mus musculus with 12 samples.

Results

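The transcripts described here encode immunoglobulin chains and proteins of antibody assembly, folding control and secretion in a mouse B cell lymphoma line. They are 7 of the 26305 genes with an identifier in the deposited count table, chosen by name: Ighm, Igkc, Jchain, Mzb1, Derl3, Prdm1 and Sdc1. All 7 were found in the table, and 5 had enough counts to be tested among the 11997 genes that passed the filter on low counts. Jchain and Prdm1 were near 0 and were left out by that filter.

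RNA was sequenced from EMRK1184luc, a single lymphoma line from a female mouse with the Eµ-Myc transgene, in which an immunoglobulin heavy chain enhancer drives Myc in B lineage cells. All groups carried the transgene and a luciferase lentivirus. Cells received 5 µM WM-1119, an inhibitor of the MYST acetyltransferases KAT6A and KAT6B, for 3 days or the vehicle DMSO for 3 days, and likewise 5 µM WM-1119 or DMSO for 6 days, with 3 libraries in each of the 4 groups. The library totals ranged from 14736267 to 41749357 counts.

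An antibody is made of heavy and light chains, each with a variable part joined from gene segments and a constant part. Ighm encodes the constant region of the µ heavy chain of IgM and Igkc that of the kappa light chain. Precursor B cells make the µ chain first and pair it with a surrogate light chain before the kappa or lambda loci are joined. Jchain links IgM and IgA into polymers for secretion. Mzb1 encodes a chaperone of the endoplasmic reticulum that helps µ chains assemble, and Derl3 encodes a derlin, part of the machinery that passes misfolded proteins out of that compartment for degradation. Prdm1 encodes BLIMP1, the transcription factor that drives plasma cell differentiation, and Sdc1 encodes syndecan-1, the plasma cell surface marker also known as CD138.

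The kappa constant exon is shown because Igkc had the largest fold changes among the tested members. It lies on the plus strand at chr6:70726435-70726754 (mm10), and its 320 bases are the whole counted feature. The last 300 bases, chr6:70726455-70726754, are given from the GENCODE M21 transcript. The capitals mark the last codon, for the cysteine through which the kappa chain is joined to a heavy chain by a disulfide bond.
Igkc: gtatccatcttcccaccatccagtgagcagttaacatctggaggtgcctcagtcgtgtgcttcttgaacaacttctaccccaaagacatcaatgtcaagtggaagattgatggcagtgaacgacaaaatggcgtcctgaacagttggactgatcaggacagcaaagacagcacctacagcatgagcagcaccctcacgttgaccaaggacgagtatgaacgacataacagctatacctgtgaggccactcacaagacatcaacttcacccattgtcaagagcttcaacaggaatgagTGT

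The heavy chain joining segments, which end the variable part next to the µ constant region, are shown because 3 of the 4 in the table had counts and Ighj4 took most of them. They lie on the minus strand of chromosome 12 (mm10, GENCODE M21), Ighj4 at chr12:113428514-113428567, Ighj3 at chr12:113429085-113429132 and Ighj2 at chr12:113429468-113429515. The capitals mark the codons for the conserved tryptophan and glycine.
Ighj4: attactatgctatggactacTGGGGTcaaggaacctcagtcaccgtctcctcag
Ighj3: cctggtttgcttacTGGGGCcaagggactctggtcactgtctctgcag
Ighj2: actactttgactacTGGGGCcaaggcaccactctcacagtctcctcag

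Of the 10 genes that mark B cells, 9 were well expressed and their summed level was 2762 to 3113 CPM per library (CPM, counts relative to library size after TMM scaling). Ms4a1, which encodes CD20, had 0 or 1 count per library. T cell markers were at or near 0, with Cd3e, Cd3d, Cd4 and Cd8a at 0 in every library. Myeloid markers summed to 108.6 to 129.7 CPM, nearly all of it Itgam, with Mpo, Elane and S100a8 at 0 or 1 count. Csf1r, another of the 8 myeloid markers, averaged 4.66 ± 0.287 CPM with WM-1119 and 1.04 ± 0.127 CPM with DMSO at 3 days, and 4.14 ± 0.480 CPM with WM-1119 and 0.835 ± 0.244 CPM with DMSO at 6 days (SD, n = 3 each), with no overlap on either day, and its part in the results was not tested. Fibroblast markers summed to 1.57 to 45.2 CPM, and 5 libraries had over 1 CPM of Col1a1: WM-1119 replicate 2 of 3 days and replicates 1 and 2 of both groups at 6 days. Their part in the results was not tested beyond leaving those 5 libraries out. That fit had 1 library per group at 6 days, so a call lost there cannot be told apart from the loss of libraries. In bulk RNA fewer cells of a type and less RNA per cell cannot be told apart.

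At 3 days, 3 of the 5 tested members passed the test and at 6 days 4 did. Mzb1 was higher and Igkc and Sdc1 were lower with WM-1119 at both times, Ighm was higher at 6 days, and Derl3 was not called at either time. Of all genes tested, 24.4% were called at 3 days and 30.8% at 6 days, so calls were common across the table. The test was edgeR's quasi-likelihood test with Benjamini-Hochberg adjustment over the 11997 tested genes. By direction, higher calls made up 11.8% of the genes at 3 days and 15.7% at 6 days, and lower calls 12.7% at 3 days and 15.1% at 6 days. The log2 fold change over the whole table had a median of 0.0016 at 3 days and -0.0037 at 6 days.

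**Figure D1:**
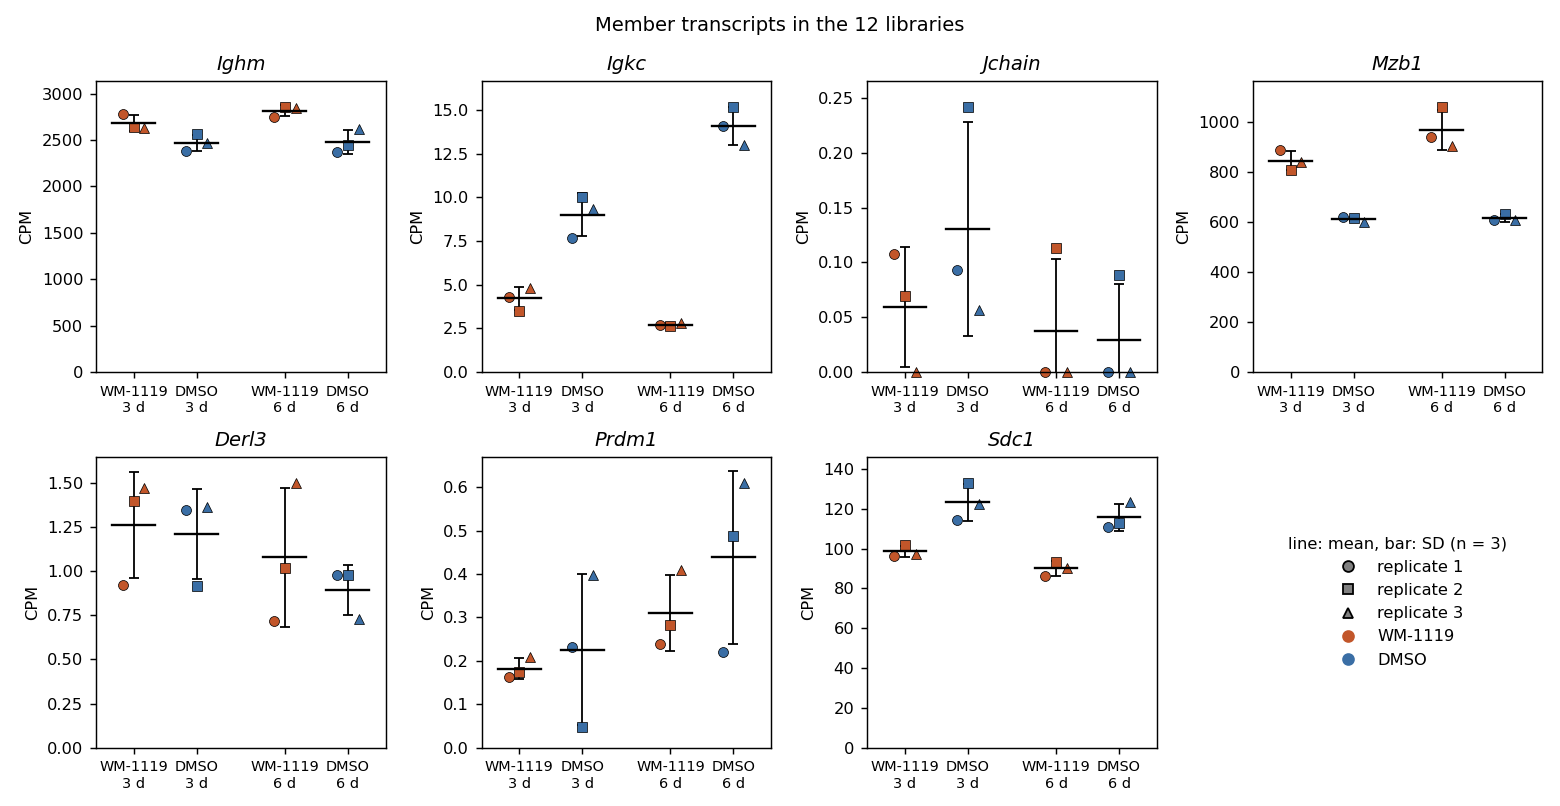
Level of each of the 7 transcripts in CPM on linear axes from 0, with 1 point per library, the group mean as a line and the SD as a bar (n = 3). Igkc is lower in every WM-1119 library than in every DMSO library of the same day, Mzb1 is higher, and Jchain and Prdm1 stay under 1 CPM throughout.

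Ighm (chr12:113418826-113422730, mm10) was the 14th most abundant of the tested genes by CPM. At 3 days it had 2786, 2638 and 2629 CPM with WM-1119, against 2386, 2561 and 2467 CPM with DMSO. At 6 days it had 2745, 2850.5 and 2846 CPM with WM-1119, against 2368, 2442 and 2624 CPM with DMSO. All WM-1119 libraries lay above all DMSO libraries of the same day, though by a small margin.

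The log2 fold change of Ighm was 0.12 ± 0.04 (SE) at 3 days, which did not pass the threshold (adjusted p = 0.0524), and 0.18 ± 0.04 at 6 days, which did (adjusted p = 0.00276). The difference between these effects was 0.06 ± 0.06 (adjusted p = 0.868). The time steps were not called either, at 0.07 within WM-1119 (adjusted p = 0.376) and 0.00 within DMSO (0.981). At 3 days 11 of 23 alternative settings called it, among them the blocks by replicate number (adjusted p = 0.0496 over both times and 0.0415 within each time) and the fits without DMSO replicate 1 (0.0442) or 3 (0.0283) of 6 days. At 6 days the call was lost without the 5 libraries with Col1a1, where the log2 fold change was 0.12 (adjusted p = 0.373) with 1 library left per group at 6 days.

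Igkc was far less abundant. At 3 days it had 4.32, 3.52 and 4.83 CPM with WM-1119, from 80 to 101 counts, against 7.66, 10.04 and 9.36 CPM with DMSO, from 165 to 208 counts. At 6 days it had 2.69, 2.66 and 2.79 CPM with WM-1119, from 41 to 47 counts, against 14.1, 15.2 and 13.0 CPM with DMSO, from 320 to 577 counts. The groups did not overlap on either day, and the 3 WM-1119 libraries of 6 days were within 0.2 CPM of each other.

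Igkc was 2.16-fold lower with WM-1119 at 3 days (log2 fold change -1.11 ± 0.14, SE; adjusted p = 2e-06) and 5.18-fold lower at 6 days (-2.37 ± 0.14; adjusted p = 3.04e-11). Both calls held in all 23 alternatives, with log2 fold changes of -1.22 to -0.97 at 3 days and -2.42 to -2.22 at 6 days. Igkc was also the 1 member of 5 whose effect differed between the days: the log2 fold change at 6 days minus that at 3 days was -1.26 ± 0.20 (adjusted p = 0.00268). Of all genes 0.725% were called in that comparison, 0.4% higher and 0.325% lower. Without the 5 libraries with Col1a1 the difference was of like size (-1.24) but was not called (adjusted p = 0.31).

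The level of Igkc moved with time in opposite directions in the treated and the vehicle cultures. Among the WM-1119 libraries it was 1.54-fold lower at 6 days than at 3 days (log2 fold change -0.62 ± 0.17; adjusted p = 0.0335). Among the DMSO libraries it was 1.56-fold higher at 6 days than at 3 days (0.64 ± 0.11; adjusted p = 0.00561). The order of the 4 group means was therefore DMSO at 6 days, DMSO at 3 days, WM-1119 at 3 days and WM-1119 at 6 days, and each neighbour in this order differed from the next in the test.

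These time comparisons were less firm than those between treatments. The call among WM-1119 libraries was lost when replicate 1 (adjusted p = 0.07) or 3 (0.149) of 3 days or replicate 1 (0.0921), 2 (0.101) or 3 (0.0823) of 6 days was left out, with limma voom (0.107) and with all libraries thinned to 14691369 counts (0.0766). The call among DMSO libraries was lost without DMSO replicate 1 of 3 days (0.0653). With the 5 libraries with Col1a1 left out, the log2 fold changes were -0.71 (adjusted p = 0.24) with WM-1119 and 0.53 (adjusted p = 0.056) with DMSO.

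Compared per base of the counted feature, Ighm transcripts outnumbered Igkc transcripts in every library. In CPM per kilobase, Ighm averaged 1800 ± 59.1 with WM-1119 and 1657 ± 58.9 with DMSO at 3 days, and 1887 ± 40.2 with WM-1119 and 1662 ± 88.3 with DMSO at 6 days (SD, n = 3 each). On the same scale Igkc averaged 13.2 ± 2.05 with WM-1119 and 28.2 ± 3.83 with DMSO at 3 days, and 8.48 ± 0.213 with WM-1119 and 44.0 ± 3.37 with DMSO at 6 days. The heavy chain constant region was thus among the most abundant features per base, while the kappa constant region was far below it, 3974th of all genes on this scale.

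The ratio of Ighm to Igkc per base was 138.3, 160.7 and 116.9 in the WM-1119 libraries of 3 days, against 66.8, 54.8 and 56.5 in the DMSO libraries. At 6 days it was 218.6, 230.3 and 219 with WM-1119, against 36.1, 34.6 and 43.3 with DMSO. This ratio carries the fall of Igkc in its denominator and is given as a description. The ranges did not overlap on either day. The mean ratio was 2.34 times as high with WM-1119 at 3 days and 5.86 times at 6 days. The exact two-sided permutation p was 0.1 each, the smallest that 3 against 3 unpaired libraries allow.

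**Figure D2:**
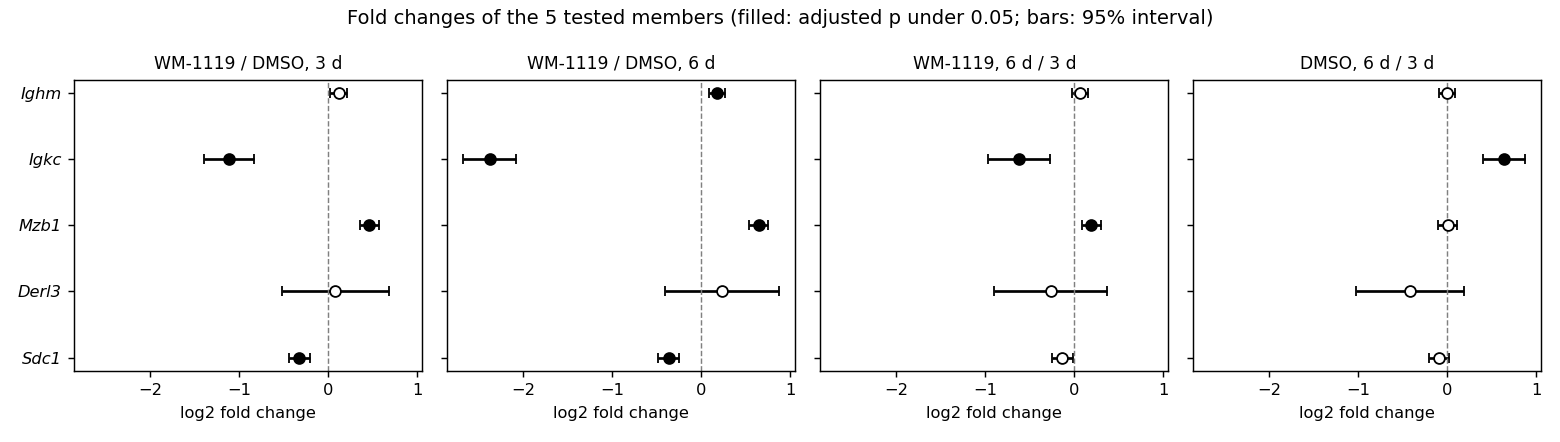
Log2 fold change (x axis) of the 5 tested members with 95% intervals in 4 comparisons, filled where the adjusted p was under 0.05. Igkc has the largest changes among these members, falling with WM-1119 at both times and rising with time in DMSO, and the intervals of Derl3 are the widest.

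Apart from Ighd, the other constant regions of the heavy chain and lambda loci were scarce. Of 11 in the list 10 were in the table, and Ighd, the δ heavy chain region made from the same primary transcript as Ighm, was the only one tested. Ighg1 had 2 counts and Ighg2b 1 count in all 12 libraries together, and Ighg2c, Ighg3, Ighe, Igha and Iglc1 had 0. Iglc2 and Iglc3, near-identical copies between which reads can be split, had 26 counts in all. Ighm and Ighd therefore held almost all heavy chain constant counts, with Ighm at 97.6% to 98.7% of them.

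Ighd had 44.9, 48.3 and 41.0 CPM with WM-1119 at 3 days, against 58.4, 61.7 and 60.1 CPM with DMSO. At 6 days it had 35.4, 38.3 and 40.8 CPM with WM-1119, against 57.2, 51.8 and 55.5 CPM with DMSO. It was 1.34-fold lower with WM-1119 at 3 days (adjusted p = 4.97e-05) and 1.44-fold lower at 6 days (adjusted p = 2.53e-06). Its neighbour Ighm did not fall, so Ighd counts per 100 Ighm counts were 1.67 ± 0.144 with WM-1119 and 2.43 ± 0.0197 with DMSO at 3 days, and 1.36 ± 0.0725 with WM-1119 and 2.22 ± 0.171 with DMSO at 6 days (SD, n = 3 each). For this ratio the exact two-sided permutation p was 0.1 at each time, the smallest possible for unpaired libraries. Counts per gene do not separate the membrane and secreted forms of the µ chain.

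**Figure D3:**
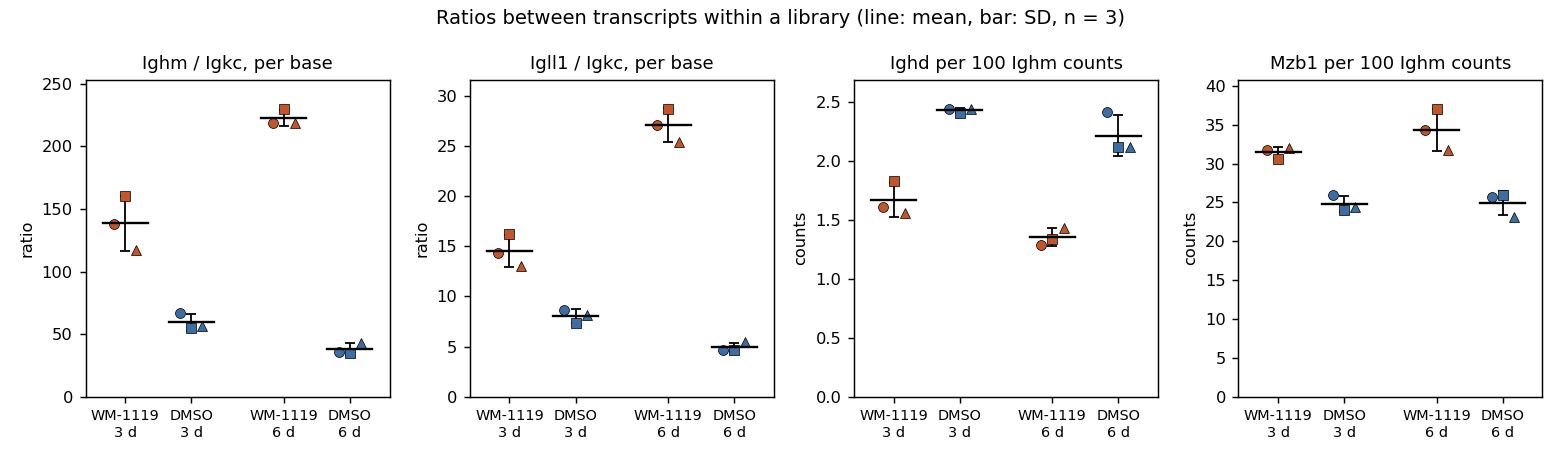
Ratios within a library on linear axes from 0, with 1 point per library, mean and SD (n = 3): Ighm and Igll1 over Igkc per base, and Ighd and Mzb1 counts per 100 Ighm counts. On both days the WM-1119 libraries have more Ighm and Igll1 per Igkc, less Ighd per Ighm and more Mzb1 per Ighm than the DMSO libraries.

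The variable segments were counted too. Of 120 heavy chain V segments 63 had counts, summing to 15.8 to 24.0 CPM per library, and 1 segment, Ighv5-17, took 62.9% to 77.4% of them. Among the joining segments shown above, Ighj4 took 59.6% to 75.9% of the counts. Of 103 kappa V segments 67 had counts. Their leading segment, Igkv10-95, took only 18.9% to 47.8% of 2.75 to 7.60 CPM, so no kappa V segment dominated as Ighv5-17 did on the heavy chain side. V segments are close paralogs, and the sources used here do not say how multimapping reads were counted.

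In the kappa locus the summed V segments, J segments and Igkc had lower medians with WM-1119 on both days. The V segments had a median of 4.16 CPM with WM-1119 and 5.36 CPM with DMSO at 3 days, and of 2.86 CPM with WM-1119 and 6.71 CPM with DMSO at 6 days, and their ranges did not overlap on either day. The J segments had medians of 0.324 CPM with WM-1119 and 0.772 CPM with DMSO at 3 days, and of 0.283 CPM with WM-1119 and 0.709 CPM with DMSO at 6 days. The sums were not tested.

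A few single segments are given as counts or CPM, chosen after their values were seen. At 6 days Iglv3, a lambda segment, had 1, 0 and 2 counts with WM-1119, against 55, 20 and 22 with DMSO. Igkv19-93 had 4, 5 and 2 counts with WM-1119, against 36, 19 and 28 with DMSO, and Igkv12-89 had 3, 4 and 2 counts with WM-1119, against 24, 19 and 20 with DMSO. Ighv14-2, a heavy chain segment, went the other way, with 19, 13 and 6 counts with WM-1119, against 4, 4 and 7 with DMSO. In CPM its groups did not overlap (1.14, 0.735 and 0.408 against 0.0976, 0.177 and 0.284). Such segments reach the filter on low counts mainly through the group in which they are high, so no test is drawn from them. Igkv10-95, the leading kappa V segment, had overlapping groups at 6 days, with 1.32, 1.47 and 0.952 CPM with WM-1119, against 1.44, 1.46 and 1.67 CPM with DMSO. Ighv5-17, with at least 146 counts in every library, had a log2 fold change of -0.38 at 6 days (adjusted p = 0.042) with overlapping groups, and 11 of 23 alternatives called it. It was lost (adjusted p of 0.0538 to 0.163) on leaving out any replicate of WM-1119 or replicate 3 of DMSO at 3 days, or replicate 1 or 3 of WM-1119 or 1 or 2 of DMSO at 6 days.

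**Figure D4:**
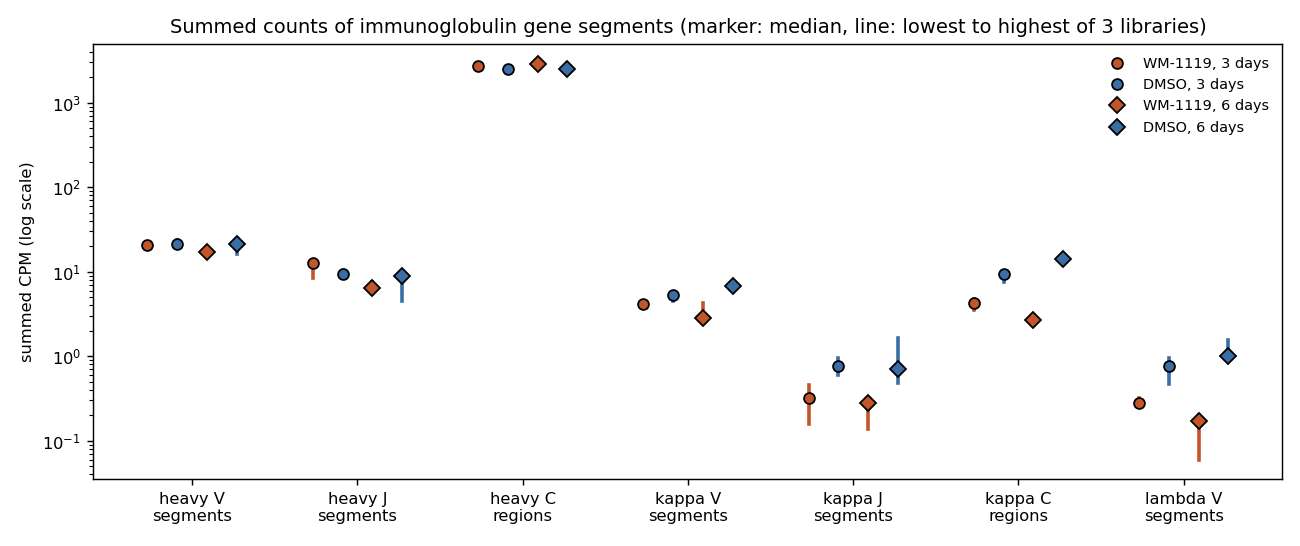
Summed CPM (log axis) of the V, J and C segments of the heavy and kappa loci and the V segments of the lambda locus, as the median and range of 3 libraries per group. Heavy chain constant regions lie between 2425 and 2889 CPM in all libraries. The medians of the kappa and lambda classes and of the heavy V segments are lower with WM-1119 than with DMSO of the same day. The median of the heavy J segments is higher with WM-1119 at 3 days and lower at 6 days.

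Jchain was close to absent. It had 2, 2 and 0 counts with WM-1119 and 2, 5 and 1 with DMSO at 3 days, and 0, 2 and 0 counts with WM-1119 and 0, 2 and 0 with DMSO at 6 days. That is 16 counts in 12 libraries. In the 5 libraries at 0 the depth allows a level of up to 0.0732 to 0.204 CPM (3 counts, counting error only). No difference between the groups was detectable at this depth.

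Mzb1 was abundant, 51st of all genes in CPM per kilobase. At 3 days it had 886, 809 and 840.2 CPM with WM-1119, against 619, 615 and 601 CPM with DMSO. At 6 days it had 941, 1057 and 903 CPM with WM-1119, against 607, 633 and 608 CPM with DMSO. The WM-1119 libraries lay well above the DMSO libraries on both days, and the DMSO libraries of 3 and 6 days lay together.

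Mzb1 was 1.38-fold higher with WM-1119 at 3 days (log2 fold change 0.47 ± 0.05, SE; adjusted p = 4.96e-07) and 1.57-fold higher at 6 days (0.65 ± 0.05; adjusted p = 1.83e-09), and both calls held in all 23 alternatives. The difference between these effects, 0.19 ± 0.07, was not called (adjusted p = 0.422). Among the WM-1119 libraries Mzb1 was higher at 6 days than at 3 days by 0.19 ± 0.05 (adjusted p = 0.0257), and in that comparison 2 of the 5 tested members were called, Mzb1 and Igkc, beside 5.62% of all genes, 2.33% higher and 3.29% lower. The time call of Mzb1 was lost without WM-1119 replicate 2 (0.141) or 3 (0.0916) of 3 days or replicate 1 (0.0596) or 2 (0.193) of 6 days, with upper-quartile scaling (0.0518) and without the 5 libraries with Col1a1 (0.0637 on the log2 scale; adjusted p = 0.745). Among the DMSO libraries its time difference was 0.01 ± 0.05 (adjusted p = 0.961), and there Igkc was the 1 member called, beside 0.809% of all genes, 0.358% higher and 0.45% lower.

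The rise of Mzb1 exceeded that of Ighm, the chain it helps to assemble. Mzb1 counts per 100 Ighm counts were 31.5 ± 0.712 with WM-1119 and 24.8 ± 1.02 with DMSO at 3 days, and 34.4 ± 2.69 with WM-1119 and 24.9 ± 1.51 with DMSO at 6 days (SD, n = 3 each). The groups did not overlap, and the exact two-sided permutation p was 0.1 at each time, the smallest possible for unpaired libraries.

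Derl3 was at the edge of detection. It had 0.919, 1.40 and 1.47 CPM with WM-1119 and 1.35, 0.917 and 1.36 CPM with DMSO at 3 days, and 0.719, 1.02 and 1.497 CPM with WM-1119 and 0.976, 0.975 and 0.731 CPM with DMSO at 6 days, from 12 to 40 counts per library. The groups overlapped on both days. The log2 fold change was 0.08 (95% interval -0.52 to 0.68; adjusted p = 0.876) at 3 days and 0.24 (-0.41 to 0.88; adjusted p = 0.609) at 6 days. No difference was detectable at this depth.

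Derl3 is known as a gene of the unfolded protein response, and the 250 bases before its start hold the response element to which ATF6 and XBP1 bind with NF-Y. The search was for CCAAT, any 9 bases and CCACG, on both strands, in promoters of RefSeq GRCm38.p6. Of 27025 genes with a promoter entry 35 held it (0.13%), of the 4 members with an entry only Derl3 did, and of 22 folding factors 8 did. The elements of Derl3 and of 3 of the others follow, because these genes share the fixed letters and had different fold changes. The positions are on mm10 and the capitals mark the fixed letters.
Derl3, chr10:75893242-75893260, plus strand: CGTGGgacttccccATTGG
Pdia6, chr12:17266491-17266509, plus strand: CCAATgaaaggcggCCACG
Ero1b, chr13:12565682-12565700, plus strand: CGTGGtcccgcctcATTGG
Hspa5, chr2:34772025-34772043, plus strand: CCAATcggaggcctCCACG
In Derl3 and Ero1b the match is on the strand opposite to the gene. Apart from Derl3, the 9 listed genes with the element split as 1 higher, 2 lower and 6 not called at 3 days and 2 higher, 4 lower and 3 not called at 6 days. Calls over all genes tested were 24.4% at 3 days and 30.8% at 6 days. Pdia6, a disulfide isomerase, was lower at both times (-0.32 and -0.33 on the log2 scale), as was the oxidase gene Ero1b (-0.46 and -0.38). Hspa5, the chaperone BiP that holds free heavy chains, had 0.01 (adjusted p = 0.928) at 3 days and 0.15 (adjusted p = 0.0253) at 6 days. Its call at 6 days was lost without any 1 replicate of WM-1119 or replicate 1 or 2 of DMSO at 6 days (adjusted p of 0.0531 to 0.154), and without the 5 libraries with Col1a1 (0.915). That of Ero1b at 6 days was lost without WM-1119 replicate 2 (0.0661) or DMSO replicate 1 (0.103) of 6 days and without the 5 libraries (0.488). A match is a description of the sequence and not a measured binding site.

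Prdm1 had 3, 5 and 4 counts with WM-1119 and 5, 1 and 7 with DMSO at 3 days, and 4, 5 and 6 counts with WM-1119 and 9, 11 and 15 with DMSO at 6 days. In CPM the groups overlapped on both days. At 6 days, where the DMSO libraries were sequenced more deeply, 0.240, 0.283 and 0.408 CPM with WM-1119 stood against 0.220, 0.487 and 0.609 CPM with DMSO. The overlap at 6 days came from DMSO replicate 1. Fitted without the filter on low counts, the log2 fold change was -0.26 at 3 days (95% interval -1.62 to 1.11; adjusted p = 0.897) and -0.45 at 6 days (-1.58 to 0.69; adjusted p = 0.663). The master regulator of plasma cells was thus at trace levels in all groups, and no difference was detectable at this depth.

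Sdc1, the surface marker of plasma cells, was expressed at a moderate level and was lower with WM-1119. At 3 days it had 96.4, 101.8 and 97.5 CPM with WM-1119, against 114.5, 132.8 and 122 CPM with DMSO. At 6 days it had 86.2, 93.4 and 90.3 CPM with WM-1119, against 110.7, 113 and 123.5 CPM with DMSO. The groups did not overlap on either day.

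Sdc1 was 1.25-fold lower with WM-1119 at 3 days (log2 fold change -0.32 ± 0.06, SE; adjusted p = 0.000188) and 1.28-fold lower at 6 days (-0.36 ± 0.06; adjusted p = 3.74e-05). Both calls held in all 23 alternatives, with log2 fold changes between -0.37 and -0.27 at 3 days and -0.45 and -0.31 at 6 days. The difference between these effects, -0.04 ± 0.08, was not called (adjusted p = 0.943). The group means ran from DMSO at 3 days, the highest, through DMSO at 6 days and WM-1119 at 3 days to WM-1119 at 6 days, and the time steps within WM-1119 (adjusted p = 0.179) and within DMSO (0.52) were not called. Sdc1 is also an epithelial gene, and 6 epithelial markers summed to 0.0525 to 0.270 CPM with WM-1119 and 0.325 to 0.965 CPM with DMSO at 3 days, and to 0.0680 to 0.419 CPM with WM-1119 and 0.220 to 0.447 CPM with DMSO at 6 days, with Cdh1 and Krt14 at 0 throughout. Their part in the result was not tested.

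The surrogate light chain and the recombinase, which mark precursor B cells, were expressed in all groups. Of 6 genes for receptor partners of the µ chain, 1 was higher and 2 lower at 3 days, and 3 were higher and 0 lower at 6 days. Over all genes tested, 24.4% were called at 3 days and 30.8% at 6 days. The genes lower at 3 days were Igll1 and Vpreb2, a paralog of Vpreb1. How reads shared by these paralogs were counted is not stated in the sources used here. Cd79b, a signalling partner of membrane IgM, was higher at both times (log2 fold changes 0.51 and 0.48; adjusted p = 2.45e-07 and 2.46e-07). Igll1, the constant part of the surrogate light chain, was lower at 3 days (-0.25; adjusted p = 0.00127) and had 0.09 (adjusted p = 0.215) at 6 days. Vpreb1, its variable part, and the related Vpreb3 were higher at 6 days (0.28 and 0.17; adjusted p = 0.000157 and 0.0107). The call of Vpreb3 was lost without WM-1119 replicate 2 of 6 days (0.127), and both were lost without the 5 libraries with Col1a1 (0.135 for Vpreb1, 0.173 for Vpreb3).

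The ratio of Igll1 to Igkc carries the fall of Igkc in its denominator and is given as a description. Per base it was 14.5 ± 1.61 with WM-1119 and 8.06 ± 0.690 with DMSO at 3 days, and 27.0 ± 1.69 with WM-1119 and 4.91 ± 0.448 with DMSO at 6 days (SD, n = 3 each). Its exact two-sided permutation p was 0.1 at each time, the smallest possible for unpaired libraries. Among 4 tested genes of recombination and class switching, 1 was higher and 0 lower at 3 days and 3 were higher and 0 lower at 6 days. Higher calls made up 11.8% of all genes tested at 3 days and 15.7% at 6 days. Rag1, a subunit of the V(D)J recombinase, was higher at both times (0.38 and 0.45; adjusted p = 5.57e-05 and 5.72e-06), Dntt, the terminal transferase, at 6 days (0.30; 0.000428), and Rag2 at 6 days (0.17; 0.0444). The call of Rag2 held in 10 of 23 alternatives and was lost (adjusted p of 0.0505 to 0.189) on leaving out replicate 2 or 3 of WM-1119 or 2 of DMSO at 3 days, or any replicate of WM-1119 or replicate 1 or 2 of DMSO at 6 days. Without the 5 libraries with Col1a1, 1 library per group was left at 6 days, too few to weigh calls. The log2 fold changes there were 0.19 for Vpreb1, 0.18 for Vpreb3, 0.17 for Dntt and 0.07 for Rag2.

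Most genes of the machinery through which the products of Ighm, Igkc and Mzb1 pass were not called, and the shares called were near or below those of the whole table, except for folding factors at 6 days. Of 25 tested folding factors 2 were higher and 4 lower at 3 days, with a median log2 fold change of -0.03, and 3 were higher and 7 lower at 6 days, with a median of 0.01. Pdia3, a disulfide isomerase that works with calnexin, was higher (0.22 and 0.39; adjusted p = 0.00066 and 4.68e-07), and Manf and Dnajb9 were lower at 6 days (-0.28 and -0.38; adjusted p = 0.000734 and 0.00878). The call of Dnajb9 was lost without WM-1119 replicate 2 (0.0506) or DMSO replicate 1 (0.0792) of 6 days. Leaving out the 5 libraries with Col1a1 left 2 higher and 2 lower calls at 3 days. At 6 days it left 1 library per group, too few to weigh calls.

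Of the 18 degradation factors that work beside Derl3, 1 was higher and 2 lower at 3 days (median log2 fold change 0.0138). At 6 days 0 were higher and 4 lower (median 0.0022). Edem1, which marks misfolded glycoproteins, was lower at both times (-0.24 and -0.30; adjusted p = 0.00162 and 0.000176). At 6 days Faf2 (-0.19; 0.00927), Herpud1 (-0.14; 0.0196) and Selenos (-0.30; 0.0255) were lower, calls that were each lost on leaving out 1 library: Faf2 without WM-1119 replicate 2 (0.0507), Herpud1 without WM-1119 replicate 1 (0.0757) or DMSO replicate 2 (0.0712), and Selenos without WM-1119 replicate 1 (0.118) or 3 (0.0523) or DMSO replicate 3 (0.115). Of 14 translocon genes 0 were higher and 1 lower at 3 days, with a median log2 fold change of -0.065. At 6 days 0 were higher and 4 lower, with a median of -0.13. The 4 were Sec63 (-0.21), Sec61a1 (-0.16), Spcs2 (-0.16) and Ssr1 (-0.12), with adjusted p of 0.000996, 0.00531, 0.0142 and 0.0456. Spcs2 was lost without DMSO replicate 1 of 6 days (0.0599), and Ssr1 (0.0527 to 0.167) without replicate 2 or 3 of WM-1119 or 1 of DMSO at 3 days, or replicate 2 or 3 of WM-1119 or 1 or 3 of DMSO at 6 days. The fit without the 5 libraries with Col1a1 left 1 library per group at 6 days, too few to weigh calls. There the log2 fold changes were -0.29 for Edem1, -0.23 for Faf2, -0.13 for Herpud1 and -0.44 for Selenos. They were -0.19 for Sec63, -0.16 for Sec61a1, -0.17 for Spcs2 and -0.18 for Ssr1.

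Beside Prdm1 and Sdc1, 17 plasma cell genes were tested. At 3 days 2 were higher and 6 lower, with a median log2 fold change of -0.26, and at 6 days 5 were higher and 9 lower, with a median of -0.35. The shares called over all genes tested were 24.4% at 3 days and 30.8% at 6 days. At 3 and 6 days the log2 fold changes were -0.80 and -1.26 for Slamf7 (adjusted p = 8.14e-11 and 5.11e-14), -0.59 and -0.80 for the ectoenzyme gene Cd38 (1.87e-07 and 1.06e-09), -0.47 and -0.71 for the transcription factor gene Irf4 (2.24e-05 and 8.87e-08) and -0.34 and -0.70 for the stress sensor gene Ern1 (0.00534 and 1.97e-06). Xbp1, which Ern1's product splices into its active form, had 0.02 (adjusted p = 0.869) at 3 days and 0.15 (0.0389) at 6 days, a call that 14 of 23 alternatives kept and that was lost without any 1 replicate of WM-1119 or replicate 1 or 2 of DMSO at 6 days (0.088 to 0.14). Sdc1 was lower, as were Slamf7, Cd38, Irf4 and Ern1, which were named by smallest p. Of the 17 genes, 2 were called higher at 3 days and 5 at 6 days. Without the 5 libraries with Col1a1, 1 library per group was left at 6 days, too few to weigh calls of this list.

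The genes that oppose plasma cell fate also leaned lower. Of 10 tested, 2 were higher and 5 lower at both times, with median log2 fold changes of -0.36 and -0.40. At 3 and 6 days the log2 fold changes were -0.73 and -1.07 for Bach2, a repressor of Prdm1 (adjusted p = 9.62e-11 and 1.67e-13), -0.54 and -0.83 for Ets1 (4.04e-09 and 3.31e-12), -0.47 and -0.58 for Pax5 (2.36e-07 and 5.93e-09), and 0.34 and 0.44 for Spib (2.2e-05 and 4.11e-07). Leaving out the 5 libraries with Col1a1 left 1 library per group at 6 days, too few to weigh calls of this list. Prdm1 stayed at trace levels beside these changes.

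**Figure D5:**
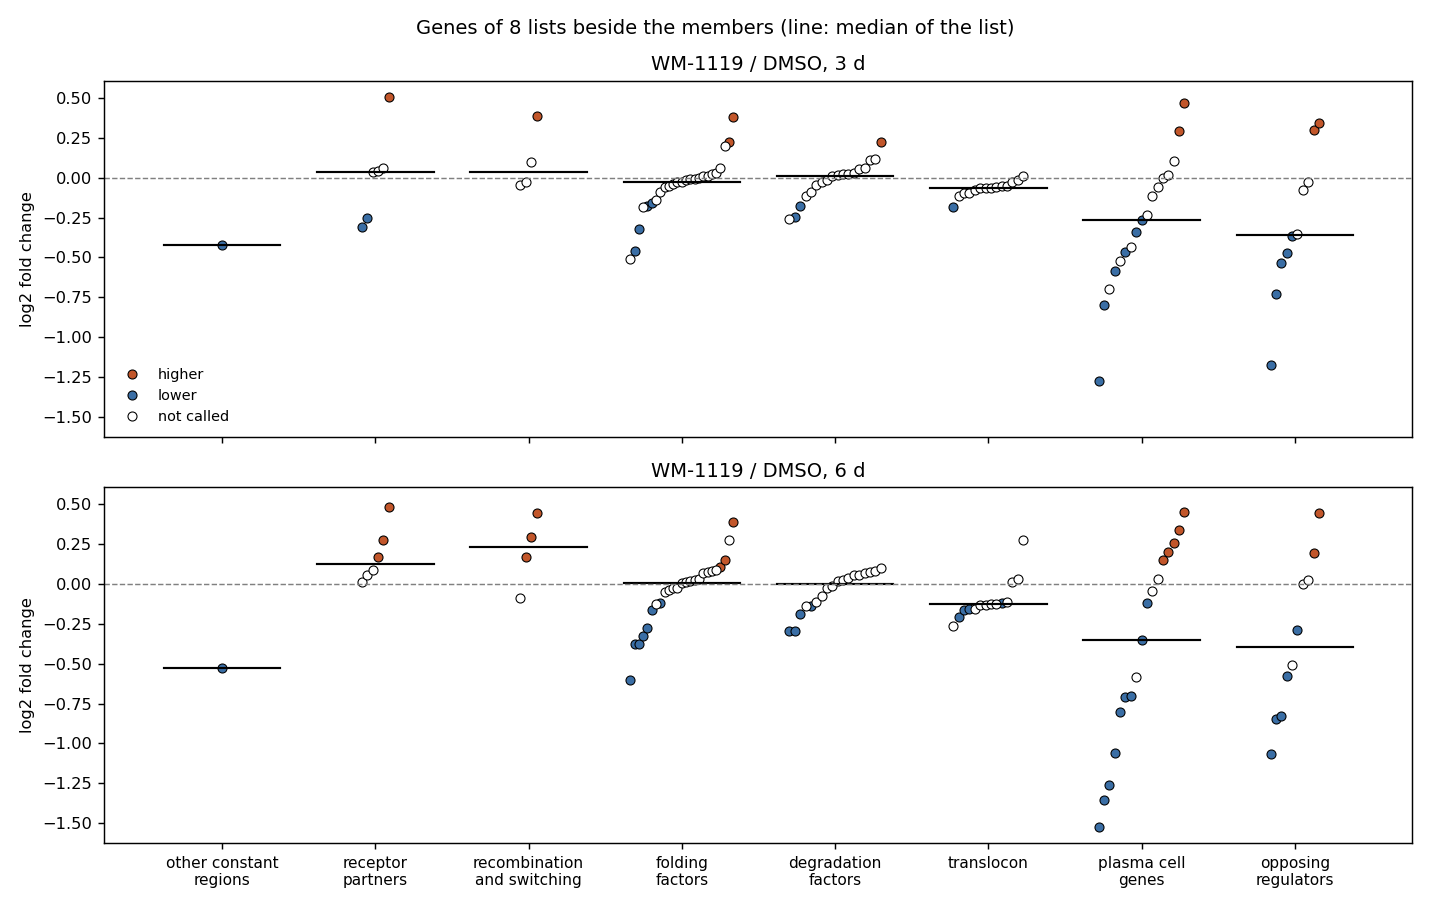
Log2 fold changes (y axis) of each tested gene in 8 lists beside the members, at 3 days above and 6 days below, coloured where called and with the list median as a line. Folding, degradation and translocon genes lie close to 0, while plasma cell genes and their opposing regulators spread down to -1.53.

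Across the 12 libraries the genes whose log2 CPM ran most closely with a member were found by Pearson correlation, as a description of libraries that share treatment and day. For Igkc they were Srebf1, a regulator of lipid synthesis (r = 0.986), the desaturase gene Scd1 (0.981) and Peg10 (0.981). For Mzb1 they were Plac8 (0.989), the Fc receptor gene Fcgr3 (0.987) and Dtnbp1 (0.986), for Ighm Spr (0.972), Tagln2 (0.964) and Taldo1 (0.960), and for Sdc1 H1f10, Mrpl38 and Noc2l (0.966 each). For Derl3 the highest were Rfx1 (0.885), Wnk4 (0.863) and Mybl1 (0.860), from 12 to 40 Derl3 counts per library. The log2 fold changes at 3 and 6 days were -1.85 and -3.51 for Scd1, -2.51 and -3.96 for Peg10 and -0.34 and -0.65 for Srebf1, beside the fall of Igkc, and 0.86 and 1.13 for Fcgr3, beside the rise of Mzb1. Those of Peg10 rest on few counts. Peg10 reached the filter on low counts mainly through the DMSO groups, so no test is drawn from it. It had 8 to 14 counts per library with WM-1119 and 47 to 68 with DMSO at 3 days, and 4 to 6 with WM-1119 and 96 to 214 with DMSO at 6 days.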

How the data were processed

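Per the labels, RNeasy kits gave the RNA and TruSeq stranded mRNA kits the libraries. The authors deposited read counts per gene, made with featureCounts on mm10 per the submitters' processing notes, with the length of each gene in another column of the deposited table. The sources used here name no aligner, strand setting or treatment of multimapping reads. The design text calls the samples biological replicates and gives no culture, day or batch, so the spread behind each p-value is that between these libraries, which may be technical.

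Of 27179 entries, 874 without identifier (0.305% to 0.362% of counts) were left out. Symbols and positions came from RefSeq, which named 25275 of 26305 genes. Counts were scaled by TMM, filtered by filterByExpr (minimum count 10) and fitted as 4 group means over 12 libraries with edgeR 4.0.16 (R 4.3.3; quasi-likelihood test, two-sided, Benjamini-Hochberg, threshold 0.05). The common biological coefficient of variation was 5.69%. CPM per kilobase uses the deposited lengths. As alternatives the fit was repeated with RLE or upper-quartile scaling, without the filter, with a filter of 1 CPM in 3 libraries, with DESeq2 1.42.0, limma voom 3.58.1, the compared groups alone, replicate blocks or thinned counts, and without single libraries or the 5 with over 1 CPM of Col1a1. The fit was tested on simulated data.

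The members and the 8 other lists were chosen with earlier results of these data known. All members are described. Of each other list up to 4 genes called at 3 or 6 days with the smallest p at 6 days are named, and for each tested member the 3 genes most like it. Hspa5, Ero1b, Xbp1, Vpreb2, Csf1r and the single segments were added after their values were seen. Same-numbered libraries of WM-1119 and DMSO deviated together at 6 days (r = 0.193, 0.144 and 0.243 across genes), so the numbers pair them there by the rule that every pair exceeds 0.1. At 3 days same-numbered libraries did not deviate together (-0.023, 0.039 and 0.006). The main fit and the exact permutations left a possible pairing at 6 days out, and only the replicate blocks took it into account. Replicates of a group differed by more than sampling noise, with a chi-square of 3.70 to 16.6 per degree of freedom.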

Additional observations from a re-analysis of the deposited data

Results flagged for a closer look

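The effect of WM-1119 differed between 6 and 3 days by the test of the difference itself for Igkc and for 6 of the other genes named. For Igkc the log2 fold change at 6 days minus that at 3 days was -1.26 (adjusted p = 0.00268 in edgeR's quasi-likelihood test), with all WM-1119 libraries below all DMSO libraries on both days. The difference was 0.34 for Igll1 (adjusted p = 0.0305), -0.46 for Slamf7 (0.00129), -0.34 for Bach2 (0.00999) and -0.29 for Ets1 (0.0204). Among the genes most like Igkc it was -0.31 for Srebf1 (0.0388) and -1.66 for Scd1 (3.59e-10). Of all genes 0.725% were called. The call held in 21 of 22 alternatives for Igkc and Slamf7, in 20 for Bach2, 16 for Ets1, 13 for Igll1 and 12 for Srebf1, and in all 22 for Scd1. Without the 5 libraries with over 1 CPM of Col1a1 all of these calls but that of Scd1 were lost. That fit had 1 library per group at 6 days, and the difference for Igkc was of like size in it (-1.24). Bach2 was also lost without WM-1119 replicate 3 of 3 days (0.0515). Ets1 (0.0605 to 0.074) was lost without replicate 2 or 3 of WM-1119 or 1 of DMSO at 3 days, or replicate 3 of WM-1119 or 1 of DMSO at 6 days. Igll1 (0.0512 to 0.126) was lost without replicate 2 or 3 of either group at 3 days, or any replicate of WM-1119 or replicate 1 of DMSO at 6 days. Srebf1 (0.0624 to 0.162) was lost without replicate 2 or 3 of WM-1119 or 1 or 3 of DMSO at 3 days, or replicate 1 or 2 of either group at 6 days.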

How the results depend on the processing

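The number of members called at 3 days was 3, or 4 where Ighm passed, and at 6 days 4, or 3 without the 5 libraries with Col1a1. Leaving out 1 library at a time gave 3 to 4 at 3 days and 4 to 4 at 6 days, and 1 to 1 for the difference between the days. Without the 5 libraries the difference for Igkc was not called, at a like size (-1.24). That fit had 1 library per group at 6 days, so its lost calls cannot be told apart from the loss of libraries. For WM-1119 at 6 days against 3 days, 2 members were called, 1 with upper-quartile scaling, limma voom or thinning, 0 without the 5 libraries, and 0 to 2 on leaving out 1 library. For DMSO at 6 days against 3 days, 1 was called, 0 without the 5 libraries, and 0 to 1 on leaving out 1 library. The replicate block, by number or within each time, called Ighm at 3 days (adjusted p = 0.0496 and 0.0415) and changed no other call of a member. No call of a tested member, or of another gene for which the alternatives were run, changed sign in them. Alternatives were not run for single segments other than Ighv5-17. Libraries of 14736267 to 41749357 counts left Jchain, Prdm1 and Derl3 too thin to compare.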
